A study of Mus musculus with 55 samples.

Results

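In mouse embryonic stem (ES) cells leaving mitosis, most pre-mRNAs were measured at higher levels after release from the mitotic block than during it. The genes described here did the opposite. They are the 33 of 9911 genes, or 0.333%, whose pre-mRNA in CCNA-GFP cells was lower than in mitosis by at least 0.2 on the log2(TPM + 1) scale in each of 4 libraries taken 90 and 120 min after release, each library being set against the mitotic library of its own replicate. The members were thus chosen by their measured levels in those 4 libraries and in the 3 mitotic ones. TPM is the abundance of a transcript relative to all transcripts of its library, and pre-mRNA is the unspliced transcript, which reports recent synthesis more closely than spliced mRNA does. Since these libraries chose the genes, their values in CCNA-GFP mitosis, 90 min and 120 min are a description and were not tested. The tests below use CTCF-AID cells, where 29 of the 33 genes are listed (Olfr459, Tarm1, C330021F23Rik and Gm10532 are not), and the CCNA-GFP libraries that the choice did not use.

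Both lines derive from E14Tg2a, an ES cell line of strain 129/Ola, and were grown in serum and LIF. CCNA-GFP cells carry a cyclin A reporter that is read as GFP fluorescence. CTCF-AID cells, clone EN52.9.1, carry the DNA-binding protein CTCF fused to a degron, so that the auxin IAA triggers its degradation. Cells of both lines were held for 4 h in 10 µM of the CDK1 inhibitor RO-3306, then for 4 h in 50 ng/ml nocodazole, which depolymerises the spindle, and mitotic cells were shaken off and released. The 19 CCNA-GFP libraries are 3 of asynchronous cells (Asy), 3 of mitotic cells (M), 2 each at 20, 30, 40, 60, 90 and 120 min after release and 1 at 50 min. The 36 CTCF-AID libraries are 18 without IAA and 18 with 0.5 mM IAA, added 2 h before release and kept in the medium afterwards, or given for 4 h to asynchronous cells. Each of those arms holds 3 asynchronous libraries, 3 mitotic ones and 2 each at 20, 40, 50, 60, 90 and 120 min. IAA acts on the CTCF protein, so the RNA of Ctcf cannot check the depletion. In CTCF-AID cells both arms come from 1 clone, and asynchronous cells, unlike mitotic ones, had not been exposed to RO-3306 or nocodazole. The level in 90 and 120 min libraries together is called the G1 level below. It is the mean of the 2 time points in fits, and the range or mean of the 4 libraries where TPM are given.

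The files give TPM and no counts, so the depth behind each value is unknown. The TPM of the listed pre-mRNAs summed to between 13747 and 42576 in the CCNA-GFP libraries and between 17702 and 43370 in the CTCF-AID libraries. The rest of each library was mRNA and genes not listed, and the lowest sums were in mitotic libraries and those at 20 min. A pre-mRNA level is therefore a share of the whole library. Of 10 ES cell markers 9 were listed, Sox2 being the exception, and their summed pre-mRNA lay between 30.7 and 48.1 TPM in CCNA-GFP mitosis and between 59.0 and 115 TPM in asynchronous cells. None of a short panel of 6 primitive endoderm markers was listed, while of a longer list of 26 such genes 10 were listed in CCNA-GFP and 9 in CTCF-AID cells, where 3 of the 9 (33.3%) were called higher in G1 and none lower, beside 77.0% and 3.90% of all genes. Of a longer list of 30 fibroblast feeder genes 5 and 8 were listed, and 5 of the 8 (62.5%) were called higher and none lower. In mitosis the listed markers of the short panels for fibroblast feeders (none of 8 in CCNA-GFP, Col1a1 and Thy1 in CTCF-AID), trophoblast (2 of 4) and neural cells (Pax6 and Nes of 4) summed to at most 0.473, 0.613 and 2.08 TPM. At 40 to 60 min they were higher, and reached 3.42, 5.26 and 10.8 TPM, and their part in the results was not tested.

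Transcription is largely shut off when chromosomes condense and resumes within the first hour after anaphase. A pre-mRNA present in mitosis can have been made before mitotic entry and kept, or be made at a low rate during mitosis. After division its level depends on new initiation, on elongation along the gene and on splicing and decay of the older molecules. A microRNA is cut from a longer primary transcript, and its seed (bases 2 to 8) pairs with target mRNAs.

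By known role the genes include secreted and surface proteins (Notum, Insl3, Adam23, Sned1, Vegfd, Adamts14, Tenm4, Tarm1 and the olfactory receptor Olfr459), membrane transporters (Slc27a2 and Slc9a8), signalling proteins (Dock1, Plcb4 and Pskh1) and proteins of transcription, RNA and translation (Taf9, Snd1, Eif4g3, Eefsec and Dis3l2). They also hold germline genes (Tdrd12, Tex14 and Nlrp4a), the DNA repair gene Hmces, metabolic and mitochondrial genes (Suclg2, Vwa8 and Enox1), Amn1, AW554918 and C330021F23Rik. The 4 that the annotation calls non-coding are the microRNA gene Mir496a and the antisense transcripts A730090N16Rik, Ptprtos and Gm10532. Of 20 gene lists, 17 held none of the 33. The lists are small (median 22 genes listed in CCNA-GFP cells) and together hold 866 listed entries, of which 4 are members (0.462%, near the 0.333% that the 33 make of the table), so these counts set the members apart in neither direction. The secreted Wnt inhibitor Notum was on the list of signalling feedback genes, Slc27a2 and Slc9a8 are solute carriers by name, and Mir496a is a microRNA by name.

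Mir496a is the one member whose product is a short RNA, and its mature sequences are shown with the seed in capitals. RefSeq places both in the 79-base hairpin on chromosome 12 of GRCm38.p6, 5p first.
mmu-miR-496a-5p (chr12:109739132-109739152, + strand): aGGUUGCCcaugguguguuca
mmu-miR-496a-3p (chr12:109739165-109739186, + strand): uGAGUAUUacauggccaaucuc
The seeds of the 2 arms differ. The hairpin lies inside Mirg, a long non-coding RNA on the same strand.

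Promoter sequences (300 bases, most of them before the RefSeq start, GRCm38.p6) were found for 28 of the 33 genes. They are shown for Slc27a2, Slc9a8 and Snd1, which were called lower from 40 min on in CTCF-AID cells without IAA, and for Vegfd, which was first called lower at 60 min. Capitals mark every match, on either strand, to the motifs searched.
Slc27a2 promoter (chr2:126552774-126553073, + strand): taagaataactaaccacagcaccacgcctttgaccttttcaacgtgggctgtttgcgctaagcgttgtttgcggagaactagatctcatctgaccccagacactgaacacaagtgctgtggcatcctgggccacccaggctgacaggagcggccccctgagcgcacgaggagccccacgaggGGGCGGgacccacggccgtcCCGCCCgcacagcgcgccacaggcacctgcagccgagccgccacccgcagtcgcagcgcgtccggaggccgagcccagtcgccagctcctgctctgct
Slc9a8 promoter (chr2:167421460-167421759, + strand): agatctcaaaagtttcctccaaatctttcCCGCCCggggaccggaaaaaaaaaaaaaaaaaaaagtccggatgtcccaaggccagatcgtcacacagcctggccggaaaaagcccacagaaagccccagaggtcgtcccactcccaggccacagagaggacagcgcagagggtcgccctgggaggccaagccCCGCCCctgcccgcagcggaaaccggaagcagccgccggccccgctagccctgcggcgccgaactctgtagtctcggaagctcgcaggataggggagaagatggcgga
Snd1 promoter (chr6:28480098-28480397, + strand): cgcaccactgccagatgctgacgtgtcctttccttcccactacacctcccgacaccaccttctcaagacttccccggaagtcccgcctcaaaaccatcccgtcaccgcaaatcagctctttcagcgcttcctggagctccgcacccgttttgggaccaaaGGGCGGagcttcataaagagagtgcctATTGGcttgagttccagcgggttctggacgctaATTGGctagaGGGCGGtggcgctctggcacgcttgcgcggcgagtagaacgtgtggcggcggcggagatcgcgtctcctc
Vegfd promoter (chrX:164373272-164373571, + strand): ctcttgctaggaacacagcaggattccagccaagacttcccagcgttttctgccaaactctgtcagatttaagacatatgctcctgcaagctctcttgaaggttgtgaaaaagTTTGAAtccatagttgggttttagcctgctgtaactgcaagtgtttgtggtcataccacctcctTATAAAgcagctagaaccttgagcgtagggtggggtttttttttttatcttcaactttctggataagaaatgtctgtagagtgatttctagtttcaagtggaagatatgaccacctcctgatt
In Slc27a2 and Slc9a8 the capitals are GC boxes (GGGCGG), in Snd1 they are GC boxes and CCAAT boxes, and in Vegfd they are a CHR (TTTGAA), an element known from genes active in late cell cycle, and a TATA box (TATAAA). Among the 28 promoters 19 held a GC box (67.9%, against 67.6% of 7952 promoters of listed genes) and 5 held CCAAT (17.9% against 40.1%). The CHR was in 3 (10.7% against 11.4%) and TATAAA in 3 (10.7% against 6.22%). The CRE (TGACGTCA) was in 1 (3.57% against 3.7%) and the AP-1 motif (TGANTCA, where N is any base) in 1 (3.57% against 4.11%). The E2F motifs (TTTGGCGC or TTTCGCGC) were in none of the 28 and in 1.79% of all. The CArG box was in none of the 28 and in 0.0252% of all. The median GC content was 64.2% for the members and 61.3% for all. These are counts of letters in 300-base windows and say nothing of which factors bind there.

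The plot by stage sets the members beside all genes. In CCNA-GFP cells the median member stood near its mitotic level 20 min after release (98.3%). It went to 91.5% by 40 min, 82.1% by 50 min and 69.0% by 60 min. Its level was 54.2% of mitosis 90 min after release and 53.6% after 120 min. The median of 9899 genes with a mitotic value above 0, in contrast, stood at 247% at 60 min and 259% at 90 min. For the members the percentage is the mean of ratios to the mitotic library of the same replicate. For all genes it is the stage mean over the mean of the mitotic libraries, so the measures differ. In asynchronous CCNA-GFP cells the median member was at 130% of mitosis, and the median of all genes was at 158%. Set against the same mitotic libraries that the rule used, and so again as a description, 31 of 33 genes were lower in every library at 60 min, as were 2.6% of all genes. At 20 min 11 of 33 were lower in every library (7.73% of all genes) and 6 were higher in every library (52.1% of all genes). The lowest stage was 90 min for 26 of the 33 members, 120 min for 5 and 60 min for 2. In the fit over both G1 time points 0.959% of all genes were called lower than mitosis and 91.8% higher. All 4 G1 libraries lay below all 3 mitotic ones for 21 of the 33 members, where 0.555% of all genes did, and all 3 asynchronous libraries lay above all 4 G1 ones for 20 (3.43%). Both shares rest on libraries of the rule and are given as a description.

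**Figure D1:**
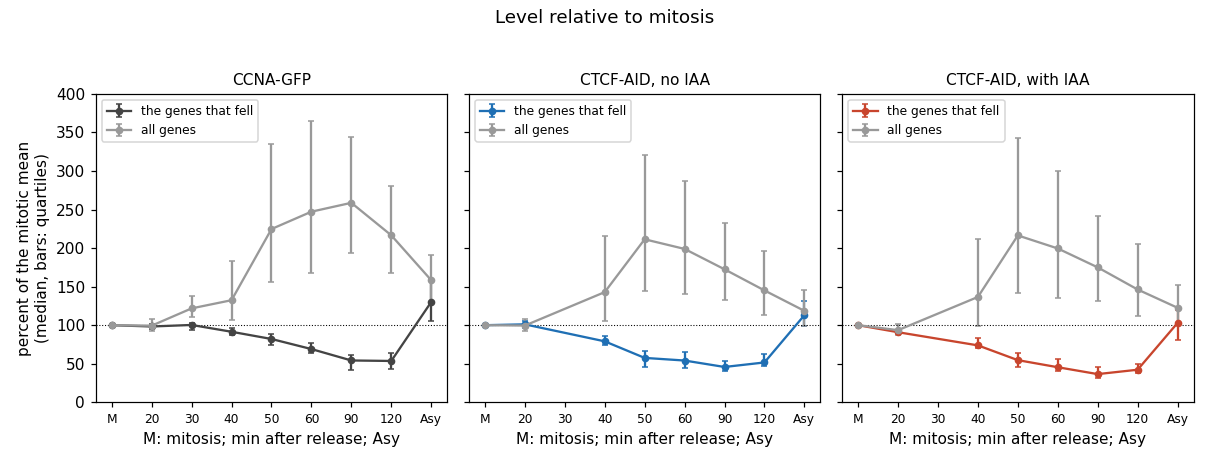
Level relative to mitosis in CCNA-GFP cells and in both arms of CTCF-AID cells. The x axis gives mitosis, minutes after release and asynchronous cells, and the y axis the percentage of the mitotic level (points: median over genes; bars: quartiles). For the members each library was divided by the mitotic one of its replicate, and the ratios were averaged. For all genes the stage mean was divided by the mean of the mitotic libraries. The 33 (CCNA-GFP) or 29 (CTCF-AID) genes went down from 40 min to 90 min while the median of all genes was above 100%, and both lay above 100% in asynchronous cells.

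The stage plot of single genes gives the difference of each member from mitosis. Taf9, a subunit of the general transcription factor TFIID, had the largest mean difference in the 4 pairs of the rule (-1.20), followed by Mir496a (-0.88), Notum (-0.87), Slc27a2 (-0.81), Insl3 (-0.79), A730090N16Rik (-0.70), Adam23 (-0.66) and Sned1 (-0.61). The smallest mean difference was that of the exonuclease gene Dis3l2 (-0.23). At the threshold, the smallest of the 4 falls was 0.201 for Vwa8, 0.205 for Enox1 and 0.205 for Dis3l2, just inside, and 0.193 for St6galnac3, 0.191 for Sult6b1 and 0.186 for Fmnl2, just outside. Members therefore grade into genes that were not chosen.

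**Figure D2:**
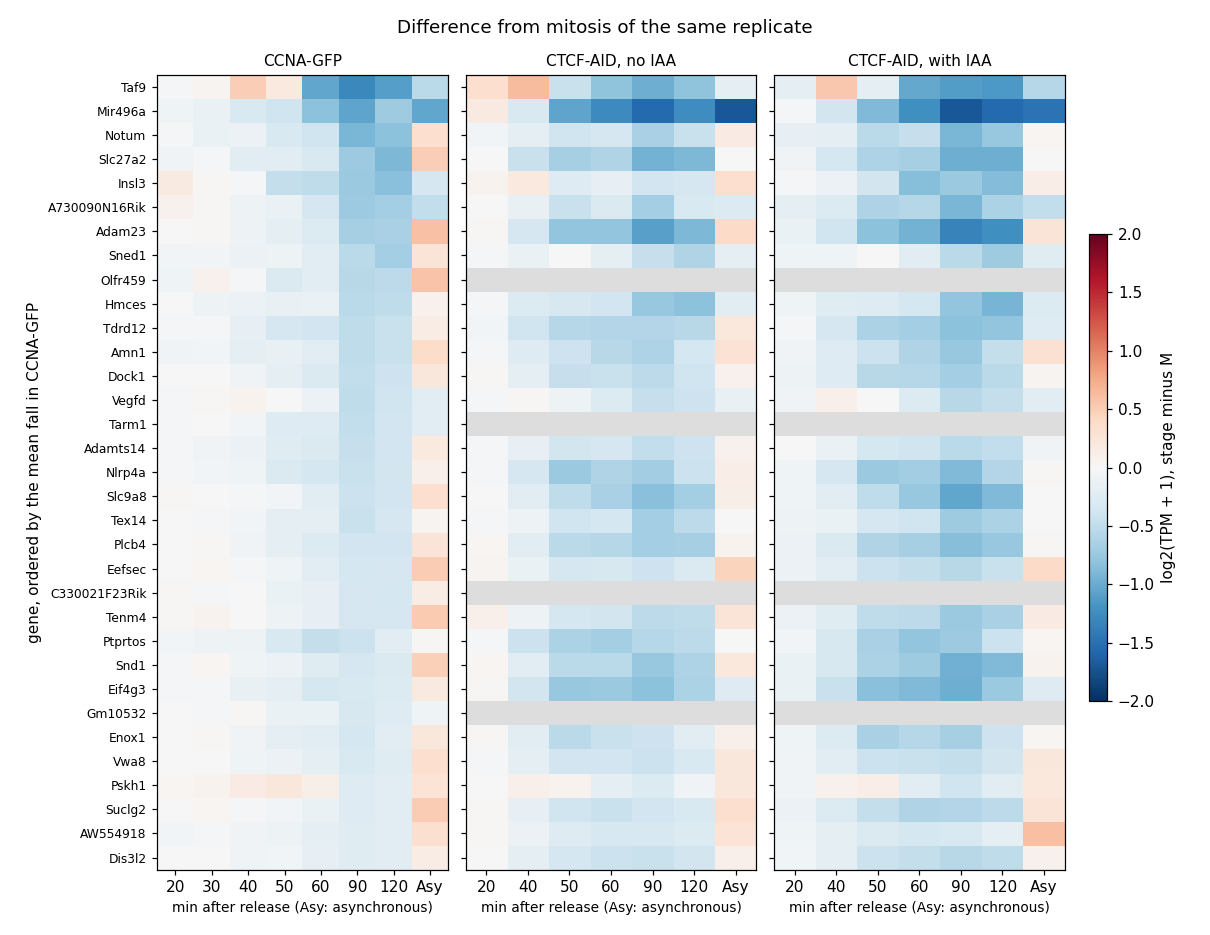
Mean difference from the mitotic library of the same replicate on log2(TPM + 1), by stage, for the 33 genes in the order of their fall in CCNA-GFP cells (blue: lower than mitosis; red: higher; grey: not listed in the CTCF-AID table). From 60 min to 120 min nearly all cells of the plot are blue in the 3 panels, and the asynchronous column is mixed.

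In CTCF-AID cells, which had no part in the choice, all of the members listed were again lower in G1 than in mitosis. Without IAA 29 of 29 were called lower (limma with the replicate number as a block, Benjamini-Hochberg adjusted p under 0.05 over 10237 genes), where 3.90% of all genes were called lower and 77.0% higher. The log2 fold changes of the members had a median of -0.54 and extremes of -1.45 (Mir496a) and -0.19 (Pskh1), against a median of 0.37 over all genes. With each library scaled to the same pre-mRNA total, the median of all genes without IAA went from 0.37 to 0.05 and 2917 genes were called lower and 3777 higher, in place of 399 and 7881, and 29 of 29 members were again lower. With IAA 29 of 29 were called lower as well, with 5.15% of all genes called lower and 75.7% higher, a range from -1.62 to -0.24 and a median of -0.66. The rule itself, applied to the same 4 pairs, was met by 22 of the 29 without IAA (1.38% of all genes met it) and by 26 with IAA (1.65%). In every pair of the arm without IAA 28 of 29 were lower than mitosis, where 4.77% of all genes were, the exception being Pskh1, and with IAA 29 of 29 were, where 4.93% of all genes were. At the same total all 29 met the rule in each arm, as did 1329 of all genes without IAA and 1713 with IAA, in place of 141 and 169, and 29.9% and 32.3% of all genes were lower in all 4 pairs. After division by the factor of each library 16 of the 29 met the rule without IAA (1.25% of all genes) and 20 with IAA (1.09%), and 28 and 29 were lower in all 4 pairs. All 4 G1 libraries lay below all 3 mitotic ones for 23 of 29 members without IAA (1.77% of all genes) and for 25 with IAA (2.23%). The overlap was less complete in the other direction. Of 137 genes that met the rule in CTCF-AID cells without IAA and are listed for CCNA-GFP cells, 22 (16.1%) met it there and 51 were lower in all 4 pairs. Of all CCNA-GFP genes 0.333% met it. In every library at 90 min 2.73% of them were lower than mitosis, and 1.97% at 120 min. Their share over all 4 pairs is not given.

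**Figure D3:**
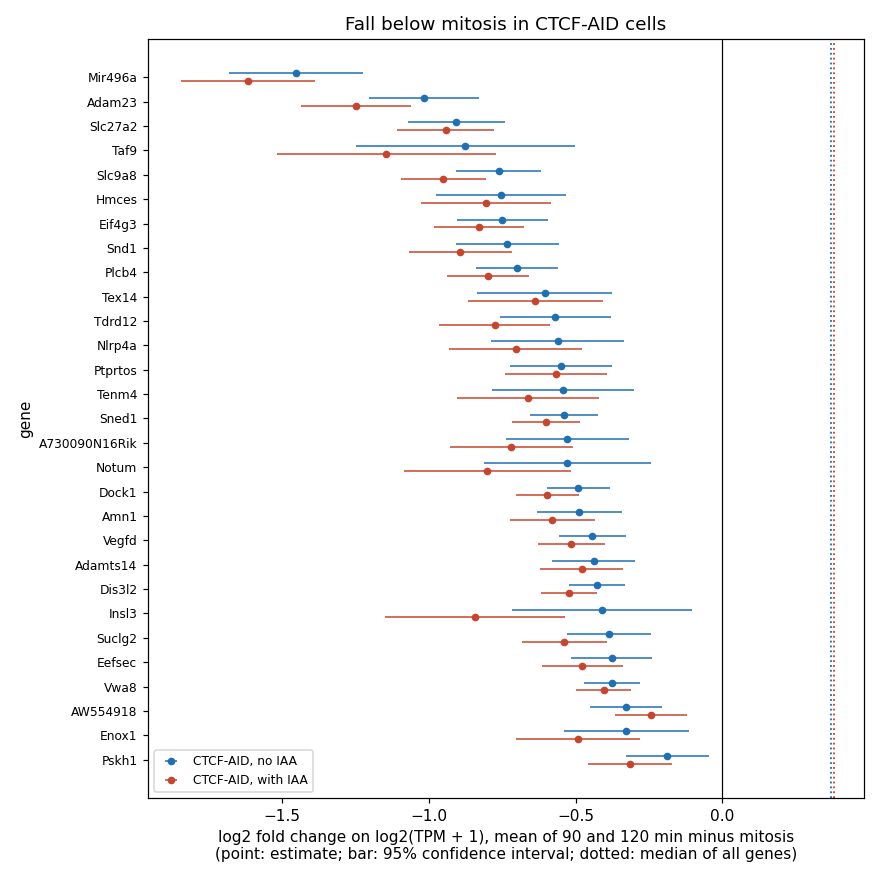
Log2 fold change between G1 and mitosis on log2(TPM + 1) in CTCF-AID cells without (blue) and with IAA (red) for 29 genes, with 95% confidence intervals of the limma fit. All points and intervals lie left of 0, and the dotted lines, the medians of all genes, lie at 0.37 and 0.38.

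Among the surface and secreted proteins, Adam23, a membrane protein of the ADAM family without protease activity, had the highest TPM of the members in mitosis in CTCF-AID cells. Without IAA its pre-mRNA was at 7.33, 7.10 and 8.80 TPM in mitosis, at 3.37 and 3.11 at 90 min, at 3.81 and 3.05 at 120 min and at 10.7, 8.02 and 13.1 in asynchronous cells. Every G1 library was below every mitotic one, and the fall was -1.02 (SE 0.09, limma adjusted p = 1.1e-09). In CCNA-GFP cells the mitotic libraries, at 5.09, 2.79 and 5.71 TPM, overlapped the G1 range of 1.5 to 3.47 TPM. The replicate 2 libraries were the lowest at the stages they cover, and each G1 library was below the mitotic one of its replicate.

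Notum encodes a secreted esterase that inactivates Wnt ligands. In CCNA-GFP cells it was at 3.94, 1.59 and 4.41 TPM in mitosis, 1.41 and 2.10 at 90 min, 1.21 and 0.845 at 120 min and 5.40, 2.03 and 6.22 in asynchronous cells. Replicate 2 was the lowest at each of these stages that it covers, so the groups overlap although each pair shows the same direction. In CTCF-AID cells without IAA the mitotic values were 2.63, 1.22 and 2.02 TPM and the G1 values 1.27, 0.948, 1.23 and 0.950 TPM (log2 fold change -0.53, SE 0.14, limma adjusted p = 0.0013). Without the replicate block this call was lost (limma adjusted p = 0.11). Of 27 signalling feedback genes listed in CTCF-AID cells, 2 were called lower in G1, Notum and the Nodal inhibitor gene Lefty2, and 13 higher (7.41% and 48.1%, against 3.90% and 77.0% of all genes).

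Insl3, which encodes a relaxin-like peptide hormone, lies within the span of the kinase gene Jak3 on the same strand, so reads there could have been divided between both genes. In CTCF-AID cells without IAA it was at 2.11, 2.90 and 2.77 TPM in mitosis and at 1.64, 1.61, 1.53 and 1.98 in G1, with no overlap (log2 fold change -0.41, SE 0.15, limma adjusted p = 0.015). Jak3 moved the other way, from 1.81 TPM (mean of mitosis) to 3.63 TPM (mean of G1; log2 fold change 0.72, SE 0.14, limma adjusted p = 4.6e-05). Without replicate 3, which leaves 1 library at 90 min, the call on Insl3 was lost (log2 fold change -0.37).

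Sned1, an extracellular matrix gene, was at 1.33, 2.49 and 1.66 TPM in mitosis and between 0.570 and 1.26 TPM in G1 in CTCF-AID cells without IAA (log2 fold change -0.54, SE 0.06). It overlaps Mterf4, on the opposite strand, which was called higher (0.78, SE 0.12). Vegfd, a ligand of vascular endothelial growth factor receptors, had little spread, with 0.957, 0.952 and 1.01 TPM in mitosis and 0.438 to 0.475 TPM in G1 (-0.44, SE 0.05). The procollagen protease gene Adamts14 (-0.44, SE 0.07) and the teneurin gene Tenm4 (-0.54, SE 0.12) were called lower as well. Olfr459 and Tarm1, a receptor gene of myeloid cells, are listed for CCNA-GFP cells alone. Olfr459 went from 0.697, 0.731 and 1.07 TPM in mitosis to between 0.144 and 0.437 in G1, and Tarm1 from 0.697, 0.498 and 0.787 TPM to between 0.180 and 0.301.

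Both solute carriers fell clear of their mitotic range. Slc27a2 encodes a fatty acid transporter and acyl-CoA synthetase. In CCNA-GFP cells it was at 1.5, 1.66 and 1.86 TPM in mitosis, 0.397 and 0.847 at 90 min, 0.257 and 0.532 at 120 min and 2.35, 3.13 and 2.85 in asynchronous cells. In CTCF-AID cells without IAA it was at 1.41, 1.10 and 1.29 TPM in mitosis, 0.654 and 0.663 at 40 min, 0.450 and 0.511 at 60 min, 0.175 and 0.263 at 90 min and 0.137 and 0.280 at 120 min. Every G1 library was below every mitotic one in both lines, and in CTCF-AID cells without IAA the log2 fold change was -0.91 (SE 0.08, limma adjusted p = 8.5e-10). Slc9a8, a sodium-proton exchanger of the Golgi, was at 3.00, 3.66 and 3.18 TPM in mitosis, 1.49 and 1.13 at 90 min and 1.57 and 1.82 at 120 min, with no overlap (-0.76, SE 0.07, limma adjusted p = 1.7e-09). Of 186 solute carrier genes listed, 12 were called lower (6.45%), Slc27a2 and Slc9a8 among them, and 141 higher (75.8%). Over all genes these shares were 3.90% and 77.0%.

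**Figure D4:**
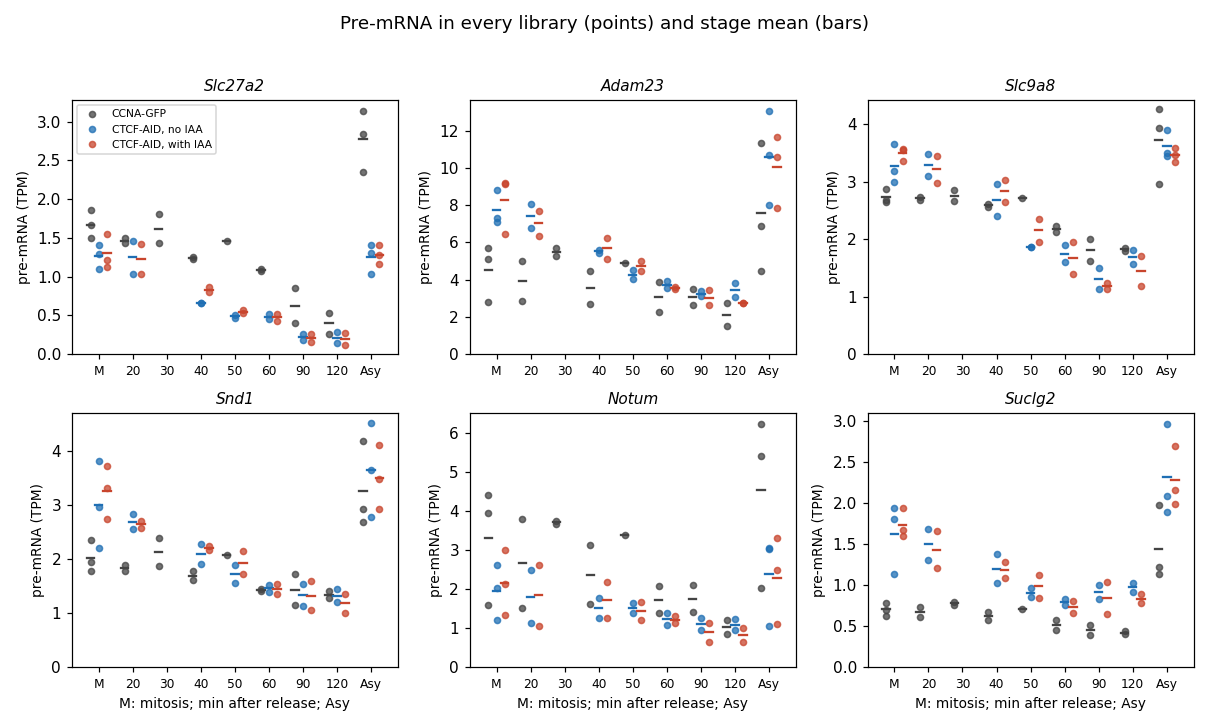
Pre-mRNA in TPM in every library (points) and stage mean (bars) for Slc27a2, Adam23, Slc9a8, Snd1, Notum and Suclg2 in CCNA-GFP cells (grey) and in CTCF-AID cells without (blue) and with IAA (red). In each gene the stage means are lower at 90 min than at 20 min and higher again in asynchronous cells. Notum spreads widely between replicates. In its replicate 2 without IAA the asynchronous level was below mitosis (1.06 against 1.22 TPM).

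Among the genes of RNA and translation, Snd1, a nuclease with a Tudor domain, was at 2.22, 2.98 and 3.83 TPM in mitosis and at 1.14, 1.55, 1.21 and 1.45 TPM in G1 in CTCF-AID cells without IAA (-0.73, SE 0.08, limma adjusted p = 5.5e-08). Eif4g3, a scaffold of translation initiation, was at 2.11, 3.51 and 2.46 TPM in mitosis, at 0.833 and 0.869 at 90 min and at 0.981 and 1.93 at 120 min (-0.75, SE 0.07, limma adjusted p = 5.4e-09). The replicate 2 library was the highest at 120 min as in mitosis. Eefsec, the elongation factor for selenocysteine, and Dis3l2, an exonuclease for uridylated RNA, fell by 0.38 and 0.43 on the log2 scale (SE 0.07 and 0.05).

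Taf9 has to be read with its neighbour. Its span on chromosome 13 (chr13:100651579-100656060, + strand, GRCm38) lies inside that of the adenylate kinase gene Ak6 on the same strand. In CTCF-AID cells without IAA Taf9 was at 0.892, 0.610 and 1.04 TPM in mitosis, 2.31 and 1.23 at 40 min and 0.438 and 0.442 at 50 min, and it was listed at 0 in all 6 libraries from 60 to 120 min. In CCNA-GFP cells it was at 1.85, 0.631 and 1.10 TPM in mitosis and was listed at 0 in all 4 libraries at 90 and 120 min. Ak6 was at 2.78 TPM in CCNA-GFP mitosis and 6.40 TPM in G1 (means), and at 3.28 and 3.76 TPM in CTCF-AID cells without IAA. The quantification divides reads shared by the 2 genes by estimate, so the values of Taf9 are uncertain, and how its reads were divided was not tested.

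Mir496a has the same limit, as a 79-base gene within Mirg. In CTCF-AID cells without IAA it was at 1.81, 3.81 and 2.85 TPM in mitosis, 0.131 and 0.105 at 90 min, 0.228 and 0.978 at 120 min and 0, 0.543 and 0 in asynchronous cells (G1 against mitosis -1.45, SE 0.11, limma adjusted p = 9.3e-11). Mirg was at 2.79 TPM in mitosis and 3.76 in G1 (means; 0.27, SE 0.09, limma adjusted p = 0.0075). Of the 29 members Mir496a is the one that was not called higher in asynchronous cells than in G1. With a pseudocount of 0.1 it was called lower in asynchronous cells than in G1 (-1.04, limma adjusted p = 0.041).

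Of the signalling proteins, Plcb4, a phospholipase C, was at 1.48, 2.05 and 2.23 TPM in mitosis and between 0.657 and 0.869 TPM in G1 in CTCF-AID cells without IAA (-0.70, SE 0.07, limma adjusted p = 3.5e-09). The Rac activator gene Dock1 fell by 0.49 on the log2 scale (SE 0.05). The kinase gene Pskh1 had the smallest fall (-0.19, SE 0.07, limma adjusted p = 0.016), with 2.11, 2.68 and 2.59 TPM in mitosis overlapping 1.71 to 2.30 TPM in G1. Without replicate 2 or replicate 3 its call was lost (log2 fold change -0.11 and -0.14). These fits leave 1 library at 120 min and at 90 min, in that order.

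Hmces, whose protein binds abasic sites in single-stranded DNA, was at 5.81, 4.61 and 4.45 TPM in mitosis and at 2.52, 2.71, 2.30 and 2.68 TPM in G1, with no overlap (-0.76, SE 0.11, limma adjusted p = 1.1e-06). The germline genes Tdrd12, Tex14 and Nlrp4a had changes of -0.57 (SE 0.09), -0.61 (SE 0.11) and -0.56 (SE 0.11). Tdrd12 and Nlrp4a showed no overlap between G1 and mitosis, and Tex14, at 2.50, 1.51 and 3.21 TPM in mitosis and 0.894 to 1.53 TPM in G1, did. Suclg2, a subunit of succinyl-CoA ligase in the citric acid cycle, was at 1.13, 1.81 and 1.94 TPM in mitosis and 0.833 to 1.03 TPM in G1 (-0.39, SE 0.07). Vwa8 (-0.38, SE 0.05), Enox1 (-0.33, SE 0.10), Amn1 (-0.49, SE 0.07) and AW554918 (-0.33, SE 0.06) had the smaller and middle changes. Of the antisense transcripts, A730090N16Rik (-0.53, SE 0.10), within Kcnab1, and Ptprtos (-0.55, SE 0.08), within Ptprt, were called lower, and both overlapped between the groups. Enox1 and Ptprtos also lost their calls without the replicate block (limma adjusted p = 0.28 and 0.11), as did Tex14 (0.054) and Pskh1 (0.061).

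The stages before G1 were compared in CTCF-AID cells without IAA to see when the members left the mitotic level. This comparison was added after the data were seen. At 20 min no member was called lower or higher, as was no gene at all (397 of 10237 had an unadjusted p under 0.05, limma). At 40 min 14 of 29 members were called lower and Taf9 higher (3.21% of all genes were lower and 63.3% higher). At 50 min 24 members were lower (4.56% lower, 79.1% higher over all genes) and at 60 min 27 (2.70% and 84.8%). At 90 min 29 were lower (3.37% and 74.8%), and 26 were lower 120 min after release (3.15% and 69.6%). The first stage called lower was 40 min for 14 members, 50 min for 10, 60 min for 4 (Taf9, Sned1, Vegfd and Pskh1) and 90 min for 1 (Insl3). Without the replicate block 5 members were called at 40 min, with 16 at the next stage and 18 at 60 min, and over all genes 145, 190 and 170 were lower, in place of 329, 467 and 276. Without replicate 1 only 1 library is left at each stage after release. Calls there would rest on the spread of other groups and are not given. At the same total 27 members were lower at 40 min, where 3755 of all genes were, so that count stands against a much higher background. Slc27a2, Adam23, Slc9a8, Snd1, Plcb4 and Eif4g3 were among those called lower from 40 min on. Without IAA the median member stood at 79.1% of mitosis by 40 min, 57.6% by 50 min, 54.2% by 60 min, 45.8% by 90 min and 51.7% by 120 min. With IAA the same 5 stages gave 73.8%, 54.7%, 45.5%, 36.6% and 42.2%.

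Asynchronous cells, a mixture of cell cycle stages, had levels above those of G1 in most members. In bulk samples fewer cells that express a gene and less RNA per cell cannot be told apart. In CTCF-AID cells without IAA 28 of 29 members were called higher in asynchronous cells than in G1 (8.57% of all genes were higher and 61.5% lower), with a median log2 fold change of 0.60 against -0.26 over all genes. The largest was that of Adam23 (1.41, SE 0.09), followed by Snd1 (0.95, SE 0.08) and Slc27a2 (0.90, SE 0.08). At the same total 3112 genes were called higher and 3324 lower, in place of 877 and 6293, and the count of members stayed at 28. Without the replicate block 5 members lost the call (A730090N16Rik, Sned1, Tex14, Ptprtos and Enox1). Over all genes 463 were then higher and 4481 lower. Every asynchronous library lay above every G1 library for 21 of 29 members (3.57% of all genes). The table lists genes above 0.5 TPM in asynchronous cells or at 2 or more post-mitotic stages, so a gene low in G1 could be listed because its asynchronous level was high. Vwa8 met that filter in this arm only through asynchronous cells, while the other 28 met it at post-mitotic stages. Among the 21 members with a G1 mean above 0.5 TPM all 21 were called higher, against 7.8% of the 9571 genes with such a mean.

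Against mitosis, the same asynchronous libraries gave calls in both directions. Of 29 members 4 were called lower (5.25% of all genes), 7 higher (34.3%) and 18 were not called, with a median of 0.10 against 0.12 over all genes. The 4 lower were Mir496a (-1.69, SE 0.12), Eif4g3 (-0.25, SE 0.08), Sned1 (-0.18, SE 0.06) and Vegfd (-0.15, SE 0.06). The 7 higher were Eefsec (0.44, SE 0.07), Adam23 (0.39, SE 0.10), Suclg2 (0.34, SE 0.07), Amn1 (0.29, SE 0.07), AW554918 (0.27, SE 0.06), Pskh1 (0.23, SE 0.07) and Vwa8 (0.22, SE 0.05). These counts depend on the fit. Without the replicate block 1 was lower and 2 were higher, where 127 of 10237 genes were lower and 1192 higher. Without replicate 2 1 was lower and 12 were higher (409 and 3064 of all genes). Without replicate 3 2 were lower and 5 higher (268 and 1770 of all genes). After division by the factor of each library 1 was lower and 19 were higher. Over all genes 133 were then lower in place of 537, and 6568 higher in place of 3515. At the same total 6 were lower, A730090N16Rik and Hmces among them, and 5 higher. Over all genes 2194 were then lower and 2781 higher.

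In CCNA-GFP cells asynchronous cells were compared with 60 min, stages that the rule did not use. The fit over all stages takes the replicate block and the spread also from the mitotic and G1 libraries of the rule. Of 33 members 24 were called higher in asynchronous cells and none lower (8.60% of all genes were higher and 67.0% lower, limma as above over 9911 genes), with a median of 0.48 against -0.47 over all genes. Adam23 (0.83, SE 0.12), Slc27a2 (0.80, SE 0.10), Olfr459 (0.74, SE 0.08) and Notum (0.74, SE 0.15) had the largest differences. Without replicate 1, which leaves 1 library at 60 min, that of Notum was 0.40. Fitted without the mitotic, 90 and 120 min libraries, an alternative added after the data were seen, the count was again 24, where 671 of all genes were higher and 6428 lower. The 9 without a call were Mir496a, A730090N16Rik, Vegfd, Tarm1, Gm10532, Insl3, Pskh1, Hmces and Tex14. At the same total 29 members were higher, while 3486 of all genes were higher and 3466 lower, in place of 852 and 6642. The median of all genes was then -0.0033. Without the replicate block Taf9, Ptprtos, Eif4g3 and Enox1 lost their calls (limma adjusted p = 0.085, 0.087, 0.21 and 0.095). Over all genes 626 were higher and 5237 lower in that fit. The fit without replicate 1 takes its spread from other groups, libraries of the rule among them, so its calls are not given. In that fit the difference of Mir496a was -0.70. Of the 9, Mir496a (-0.22, SE 0.21), A730090N16Rik (-0.17, SE 0.11) and Vegfd (-0.12, SE 0.09) had lower mean values in asynchronous cells. In this line 31 of the 33 members met the filter at post-mitotic stages, and of those 31, 22 were called higher. C330021F23Rik and Vwa8 met it only through asynchronous cells. Of the 22 members with a G1 mean above 0.5 TPM 15 were called higher, against 7% of the 9327 genes with such a mean.

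With CTCF depleted all 29 members still fell, and few differences between the arms passed a test. The fall from mitosis to G1 was larger with IAA for 28 of 29 members (96.6%, against 46.3% of all genes), which rests on replicate 1. Without replicate 1 it was larger for 9 of 29 (28.2% of all genes), with a median difference of 0.02. Both pairs of replicate 1 had the larger fall with IAA in 29 of 29 members (50.0% of all genes at 90 min and 68.1% at 120 min), while it was 13 of 29 in the pair of replicate 3 at 90 min (48.3% of all genes) and 14 of 29 in that of replicate 2 at 120 min (21.2%). No single difference passed the test (limma interaction, adjusted p under 0.05), and none had an unadjusted p under 0.05, where 0.527% of all genes were called lower and 0.166% higher. The median difference was -0.10 and the extremes -0.43 (Insl3) and 0.09 (AW554918). The members share the same 14 libraries of mitosis and G1, so their common sign is not independent from gene to gene. Insl3 had the largest, with a 95% interval of -0.87 to 0.0012 (limma adjusted p = 1.0), and that of Slc27a2 was -0.04 (-0.27 to 0.20). At single stages no member was called for an effect of IAA from mitosis to 120 min (limma adjusted p under 0.1 and a log2 fold change over 0.2, and none had an unadjusted p under 0.05). Over all genes no call was made in mitosis, at 20 or at 40 min. The shares called lower and higher were 0.195% and 0.0879% at 50 min, 0.166% and 0.0586% at 60 min, 0.557% and 0.176% at 90 min and 0.459% and 0.127% at 120 min. In asynchronous cells 1 member was called, AW554918, where 0.313% of all genes were called higher and 0.694% lower. It was at 1.19, 1.30 and 1.49 TPM without IAA and 2.22, 1.99 and 2.05 TPM with IAA, with no overlap (0.41, SE 0.10, limma adjusted p = 0.062). Without any 1 of the 3 replicates this call was lost (limma adjusted p between 0.18 and 1). It was also lost with a pseudocount of 0.1 (0.38) and at the same total (0.19), and kept with the replicate block (2.0e-04). Tdrd12, at -0.50 (limma adjusted p = 0.16), was called lower with the replicate block (0.0032), at the same total (0.014) and without replicate 2 (0.032).

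The members differed from the table as a whole in features of gene structure that the choice did not use. Their median span in the Gencode annotation of GRCm38 was 55.3 kb (quartiles 17.0 and 245.8 kb), against 22.7 kb over the 9885 matched genes of the CCNA-GFP table. Of the 33, 13 span 100 kb or more (39.4%, against 10.7% of all) and 10 span 200 kb or more (30.3%, against 3.18%). The 10 are Tenm4, the longest at 739.8 kb, Enox1, Dock1, Snd1, Plcb4, Vwa8, Dis3l2, AW554918, Suclg2 and Eif4g3. At the other end 7 span under 10 kb, among them Mir496a, Insl3, Taf9 and Ptprtos. The share of genes called lower in G1 also went up with span among genes outside the 33. Without IAA it was 1.97% under 10 kb, 3.34% from 10 to 50 kb, 4.73% from 50 to 100 kb, 5.47% from 100 to 200 kb and 12.7% (36 of 284) at 200 kb or more. With IAA it was 2.17%, 4.15%, 6.86%, 9.73% and 19.4%. Genes of 200 kb or more were still more often called higher (54.1% without IAA over all genes of that span). Within the members, the median of those of 100 kb or more was above that of the shorter ones in G1, which was not tested. At 90 min the medians were 46.6% (13 genes) and 43.8% (16 genes) of mitosis without IAA, 38.7% and 34.2% with IAA and 59.0% and 48.0% (13 and 20 genes) in CCNA-GFP cells. At 120 min they were 54.6% and 48.9%, 47.7% and 40.7%, and 60.7% and 43.6%. In asynchronous cells without IAA the medians were 126% and 107%. Of the 33, 17 overlap another annotated gene on the same strand (51.5%, against 22.7%), and span was not held equal in that count.

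**Figure D5:**
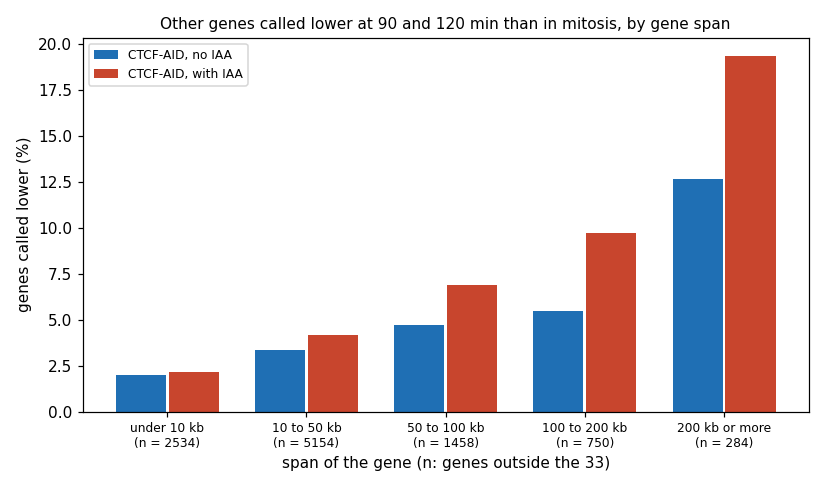
Share of genes outside the 33 that were called lower in G1 than in mitosis in CTCF-AID cells (y axis, percent) by the span of the gene (x axis, with the number of genes), without (blue) and with IAA (red). The share goes from 1.97% under 10 kb to 12.7% at 200 kb or more without IAA, and from 2.17% to 19.4% with IAA.

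The mitotic means of the members had a median of 1.29 TPM in CCNA-GFP cells, from 0.390 TPM for Vwa8 to 5.99 TPM for Hmces, and the median of all genes was 0.951 TPM. Some of the 17 lists without a member are given beside all genes, of which 3.90% were called lower in G1 without IAA and 77.0% higher. The list of mitotic entry and spindle genes had 8 of 51 genes lower (15.7%) and 24 higher (47.1%), the tubulins 3 of 14 lower (21.4%) and 7 higher, and the cholesterol genes 5 of 25 lower (20%) and 7 higher (28%). The ribosomal protein genes had 13 of 91 lower (14.3%) and 54 higher (59.3%). Of 26 p53 target genes none was called lower and 25 higher (96.2%), and of 36 pluripotency genes 3 were lower (8.33%) and 16 higher (44.4%). Several other lists stood near or below the share of all genes called lower. The zinc finger genes had 3 of 286 lower (1.05%), the stress genes 1 of 26 (3.85%) and the cell adhesion genes 1 of 23 (4.35%). None was lower among 23 immediate early genes, 23 actin, SRF and YAP target genes and 5 histone genes. Of 10 neural and mesoderm markers 1 was lower (10%).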

How the data were processed

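Ribosomal RNA was depleted, and stranded libraries were sequenced from both ends. The authors mapped reads on mm10 by STAR and used RSEM, with the Gencode vM12 transcripts plus 1 pre-mRNA isoform per gene, to estimate abundance. Versions are not given in the sources used here. The authors deposited the TPM of the pre-mRNA for genes above 0.5 TPM in asynchronous cells or in 2 or more post-mitotic samples. Within each library values are whole multiples of a step of 0.01 TPM times a factor (1.84 to 3.81), which the sources used here do not explain. All 55 columns were used. The headers of the asynchronous CTCF-AID columns are misspelled, and these columns were assigned by the arm and replicate number they give. RSEM divides reads shared by overlapping genes on 1 strand by estimate.

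Tests used limma 3.58.1 (R 4.3.3; lmFit, eBayes with trend) on log2(TPM + 1) over all genes of a table, two-sided, with Benjamini-Hochberg adjustment and a threshold of 0.05. For IAA effects it was 0.1 with a log2 fold change over 0.2. Fold changes on this scale understate those of low genes. The fit was tested on simulated data. The replicate number was a block in stage contrasts and not in IAA contrasts. In the study's methods replicates are independent and fold changes are computed within each, and same-numbered libraries deviated together (82 of 82 correlations of deviations from group means were over 0.1 in CTCF-AID, 0.135 to 0.806, and 41 of 41 in CCNA-GFP, 0.130 to 0.802).

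The members and lists were chosen with earlier results of these data known. Genes named are the 15 with the largest mean fall, up to 10 called each way in CTCF-AID, members on a list not made by name prefix, those with IAA calls at 2 or more stages (none) and 3 on either side of the threshold; other members and genes were named after their values were seen. Alternatives were another pseudocount (0.1), a filter at a mean of 1 TPM, scaling to the same total, division by the factor, the other blocking and leaving out each replicate. Gene spans come from Gencode for GRCm38, matched by symbol for 9885 of 9911 and 10209 of 10237 genes and for 33 of 33 members, and promoter and microRNA sequences from RefSeq (GRCm38.p6).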

Additional observations from a re-analysis of the deposited data

Results flagged for a closer look

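Insl3 and Sned1 differed in opposite directions between asynchronous cells and mitosis in the 2 cell lines, with every replicate pair of 1 line on one side and every pair of the other line on the other side. For Insl3 the mean difference on log2(TPM + 1) was -0.33 in CCNA-GFP cells and 0.33 in CTCF-AID cells without IAA (3 pairs each). For Sned1 it was 0.26 in CCNA-GFP cells and -0.18 in CTCF-AID cells without IAA. With IAA the pairs of Insl3 went both ways (mean 0.14, from -0.32 to 0.63), while Sned1 was at -0.24 (from -0.33 to -0.14). The value of Sned1 in CTCF-AID cells without IAA (limma adjusted p = 0.022) went to -0.0037 after division by the scaling factor (0.95), and its call was also lost without the replicate block (0.63), with a pseudocount of 0.1 (0.059) and without replicate 1 or 2 (0.20 and 0.26). The difference between the lines was not tested, and the mitotic CCNA-GFP libraries were among those that chose the genes.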

How the results depend on the processing

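The fall from mitosis to G1 in CTCF-AID cells kept its direction in all 29 genes under every alternative run. Without the replicate block 24 of 29 were called lower without IAA and 27 with IAA, where 210 and 299 of 10237 genes were. Leaving out 1 replicate lost a few calls, those of Insl3 and Pskh1 without IAA among them. It leaves 1 library at 90 min, at 120 min or at both, so those counts are not given. The filter at 1 TPM leaves 17 of 29 and 21 of 33 genes. Counts therefore went to 17 in both arms, where 277 of 7523 genes were lower without IAA and 359 with IAA. For asynchronous cells against G1 the count went to 16 (505 of 7523 genes were higher). In CCNA-GFP the count for asynchronous cells against 60 min went to 14 (357 of 6808 genes were higher). Leaving out replicate 1 or 2 leaves 1 library at 60 min there, so no count is given. Without the replicate block 5 of the 28 calls for asynchronous cells against G1 were lost. In CCNA-GFP Taf9, Ptprtos, Eif4g3 and Enox1 lost their calls against 60 min without the block. In asynchronous cells against mitosis the count of lower genes was 1 without the replicate block and 1 after division by the factor (1 to 3 without 1 replicate), and that of higher genes was 2 without the block, 4 with the filter and 19 after division (5 to 12 without 1 replicate). Over all genes 455 of 7523 were lower with the filter and 2441 higher, and 435 and 2766 of 10237 without replicate 1. Scaling to the same total moved the median of all genes in G1 against mitosis without IAA from 0.37 to 0.05. Vegfd in CCNA-GFP cells, not called in asynchronous cells against 60 min (-0.12), was called higher (0.21) at the same total. The count of genes meeting the rule was 88 with a pseudocount of 0.1, 1413 at the same total, 7 after division, 21 with the filter, and 76 or 9 with a threshold of 0.1 or 0.4. All 33 were among the 88, the 1413 and the 76. IAA calls of members numbered 2 with the replicate block (AW554918 and Tdrd12), 0 with a pseudocount of 0.1, 0 with the filter and 0 to 1 without 1 replicate; the 1 call at the same total and the 1 without replicate 2 were Tdrd12, not AW554918. Without the block the count of members lower than mitosis without IAA was 5 in place of 14 at 40 min, 16 in place of 24 at 50 min and 18 in place of 27 at 60 min, and over all genes 210 in place of 399 were called lower in G1 without IAA. The causes were not tested, except that the filter tests fewer genes.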
